A study of Mus musculus with 12 samples.

Results

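The genes described here are 10 genes of hormone-secreting cells of the gut, found by symbol among the 20090 genes of a table of single mouse intestinal cells. They were Gip (glucose-dependent insulinotropic polypeptide), Sct (secretin), Cck (cholecystokinin), Gcg (proglucagon), Pyy (peptide YY), Nts (neurotensin), Sst (somatostatin), Ghrl (ghrelin), Tac1 (the precursor of substance P) and Tph1 (tryptophan hydroxylase 1, the first enzyme of serotonin synthesis). All 10 were in the table. Their values were read in cells with a value of at least 1 for Chgb (chromogranin B, a protein of secretory granules) or Neurod1 (a transcription factor of enteroendocrine cells), called positive cells here. The positive cells numbered 7294 (26.2%), and they were set against the other 20585 of the 27879 cells kept. Among the positive cells, 3700 had a Chgb value of only 1, and 217 had both Chgb and Neurod1.

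Enteroendocrine cells are rare cells scattered through the gut epithelium that sense the contents of the lumen and release hormones into the tissue and blood. They were long divided by hormone, with K cells making Gip, S cells secretin, I cells Cck, L cells proglucagon and Pyy, N cells neurotensin, D cells somatostatin, X cells ghrelin and enterochromaffin cells serotonin and often substance P. Many single cells are known to hold more than 1 of these hormones, so the division is a matter of degree.

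The table came from droplet-based sequencing of the 3′ ends of transcripts in sorted cells (negative for the immune marker CD45 and positive for the epithelial marker EpCAM) from the small intestine of adult Lgr5DTR-GFP mice, a strain with a reporter and toxin receptor at the stem cell gene Lgr5. The 8 samples of a diet group share this strain, sort and age class, and the diet of each sample is not named in the labels. Each intestine was divided into 30 pieces whose cells were tagged with MULTI-seq barcodes, but the piece of each cell was not used here, and 2 total epithelium and 2 progenitor samples were not analysed here. Cell barcodes ended in 1 of 8 numbers, and these could not be tied to single samples, whose titles are numbered otherwise, so the table is 1 pooled sample, the 8 barcode sets are given as values, and no test was made.

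Values are whole numbers on a scale whose depth is unknown, with cell totals of 2764 to 9739 (median 5503). The level of a gene in a group of cells is its own sum as a share of all their values, in ppm (1 ppm is 0.0001%), and a difference is the log2 of 2 levels after adding 1 ppm to each, which understates differences of low genes. Positive cells and other cells were alike in median cell total (5520 and 5501) and in median mitochondrial share (8.20% and 8.18%), and they had 2111 and 2254 median detected genes. Barcode sets 4 and 7 stood apart. Cells with a Chgb value of 5 or more made up 1.57% of set 4 and 5.13% of set 7, against at most 0.938% of any other set. Between sets, 80 pairs of cell barcodes were shared. Epcam, the gene of the sort marker, was at 2105 ppm in positive cells and 2210.4 ppm in other cells.

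The promoters of 5 of the genes are shown because these genes appeared together at high values in the same cells, Ghrl with Sst, and Pyy and Nts with Sct. They run from 250 bases before to 50 bases after a transcription start in RefSeq (GRCm38.p6), 5′ to 3′ on the gene's strand. Capitals mark 3 motifs that were searched on both strands, TATAA (the core of a TATA box), CAGATG (an E-box of the kind bound by basic helix-loop-helix factors such as Neurod1) and TGACGTCA (the cAMP response element), and no matches overlapped.
Sst promoter, chr16:23890795-23891094, minus strand: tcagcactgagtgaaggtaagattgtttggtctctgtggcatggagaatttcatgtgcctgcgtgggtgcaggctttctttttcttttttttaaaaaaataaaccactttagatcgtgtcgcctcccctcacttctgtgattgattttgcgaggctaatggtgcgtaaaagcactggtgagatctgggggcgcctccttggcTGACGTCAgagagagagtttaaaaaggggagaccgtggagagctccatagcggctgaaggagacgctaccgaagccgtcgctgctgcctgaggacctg
Ghrl promoter, chr6:113719862-113720161, minus strand: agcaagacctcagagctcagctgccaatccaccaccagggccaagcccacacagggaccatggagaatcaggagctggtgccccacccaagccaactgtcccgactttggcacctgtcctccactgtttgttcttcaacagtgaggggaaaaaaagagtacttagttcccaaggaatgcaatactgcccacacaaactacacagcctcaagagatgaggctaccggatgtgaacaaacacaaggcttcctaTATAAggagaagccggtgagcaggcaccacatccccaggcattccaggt
Sct promoter, chr7:141279084-141279383, minus strand: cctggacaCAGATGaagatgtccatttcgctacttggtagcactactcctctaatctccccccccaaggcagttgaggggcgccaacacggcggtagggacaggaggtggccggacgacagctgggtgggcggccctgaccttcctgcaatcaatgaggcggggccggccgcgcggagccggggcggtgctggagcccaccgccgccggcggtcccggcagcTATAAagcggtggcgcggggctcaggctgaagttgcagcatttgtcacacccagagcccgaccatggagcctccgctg
Pyy promoter, chr11:102107783-102108082, minus strand: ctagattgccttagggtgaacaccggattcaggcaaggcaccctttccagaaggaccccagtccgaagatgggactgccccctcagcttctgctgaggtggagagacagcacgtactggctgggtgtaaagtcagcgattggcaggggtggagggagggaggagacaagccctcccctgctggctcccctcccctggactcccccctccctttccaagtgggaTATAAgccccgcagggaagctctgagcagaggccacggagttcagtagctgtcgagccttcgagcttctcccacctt
Nts promoter, chr10:102490369-102490668, minus strand: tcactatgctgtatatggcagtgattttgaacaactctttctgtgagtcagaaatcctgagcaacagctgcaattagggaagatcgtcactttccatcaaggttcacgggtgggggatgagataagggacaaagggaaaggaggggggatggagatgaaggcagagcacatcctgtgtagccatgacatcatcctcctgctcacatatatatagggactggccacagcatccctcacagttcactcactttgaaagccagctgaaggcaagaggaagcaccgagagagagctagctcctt
The 10 genes have 15 promoters in the RefSeq table, since Pyy, Tph1 and Ghrl have more than 1. TGACGTCA was in 1 of the 15, that of Sst, and in 1.79% of 32851 promoters in the whole table. TATAA was in 7 of the 15 promoters (of Gcg, Ghrl, Gip, Pyy, Sct and Tph1), against 24.9% of all promoters. CAGATG was in 6 of the 15 (of Cck, Gcg, Ghrl, Sct and Tac1), against 17.1%. The Pyy windows overlap and hold the same TATAA site, and neighbouring Ghrl windows overlap and share a CAGATG site. Such sites are counted more than once in the 15. The TATAA match in the Ghrl promoter shown lies after the transcription start. Of the promoters shown, Sct held a match of TATAA and a match of CAGATG, and Nts held none of the 3 motifs. A match shows only that these letters are in the window. In the same build Sst lies at chr16:23889573-23891342, Ghrl at chr6:113716119-113719911, Sct at chr7:141278329-141279174, Pyy at chr11:102106676-102107832 and Nts at chr10:102481756-102490418. Of the genes without a printed promoter, Gip lies at chr11:96024532-96030831, Cck at chr9:121489824-121495694, Gcg at chr2:62474530-62483653, Tac1 at chr6:7555061-7562978 and Tph1 at chr7:46644641-46672537.

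The hormones of the upper small intestine were higher in positive cells, on a background that was far from 0. Gip, the incretin of K cells, was at 121 to 1789.8 ppm over the 8 barcode sets in positive cells (median 604), against 115 to 826 ppm in other cells (median 269.7). The ranges overlapped, but in each of the 8 sets Gip was higher in positive cells, by a log2 difference of 1.24 over all cells (0.07 to 2.78 over sets). Sct, which stimulates bicarbonate release from the pancreas, was at 98.8 to 718 ppm in positive cells (median 147), against 52.7 to 218 ppm in other cells (median 109). Its difference was 1.02, again with positive cells above in all 8 sets. Cck, which contracts the gallbladder, was at 20.5 to 213 ppm in positive cells (median 47.8), against 9.26 to 79.7 ppm in other cells (median 30.2). Its difference was 0.98, and in set 6 positive cells were not above the others.

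Of the hormones of L and N cells, Pyy had a difference close to that of Sct, and those of Nts and Gcg were smaller. Pyy, which slows gut transit and reduces appetite, was at 14.96 to 141 ppm in positive cells (median 29.8), against 12.7 to 54.6 ppm in other cells (median 25.8), a difference of 1.04 with 7 of 8 sets higher. Nts, which promotes fat absorption, was at 24.7 to 366 ppm in positive cells (median 53.9), against 15.5 to 149 ppm in other cells (median 29.4), a difference of 0.50 with all 8 sets higher. Set 4 was the highest for Nts in both kinds of cell. Gcg, the source of glucagon-like peptides, was near the floor of the table, at 4.28 to 14.4 ppm in positive cells (median 8.39), against 4.29 to 12.7 ppm in other cells (median 6.38), a difference of 0.47 with 6 of 8 sets higher.

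Somatostatin had the largest difference of the 10 over all cells. Sst, which inhibits the release of other gut hormones, was at 38.9 to 893 ppm in positive cells (median 187), against 29.4 to 258 ppm in other cells (median 108). The difference was 1.47 (0.18 to 2.42 over sets), and all 8 sets were higher. Ghrl, a hormone of hunger made mainly in the stomach and also in the duodenum, was at 14.5 to 301 ppm in positive cells (median 68.7), against 12.5 to 85.5 ppm in other cells (median 45.7), a difference of 1.22. In sets 5 and 6 Ghrl was not higher in positive cells. The highest level, 301 ppm in set 4, rests largely on 1 cell with a value of 517. Only 41 of the 486 positive cells of set 4 had a Ghrl value, and the mean was 1.53. The highest Ghrl value of the table, 866, was in a cell of set 5 with neither Chgb nor Neurod1, while Ghrl was detected in 13.9% of positive cells and 8.22% of other cells of that set.

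The 2 genes of enterochromaffin cells were low in the table as a whole. Tac1 was at 1.28 to 16.8 ppm in positive cells (median 3.55), against 1.11 to 6.91 ppm in other cells (median 2.66), a difference of 1.07 with 5 of 8 sets higher. Tph1 was at 8.22 to 17.6 ppm in positive cells (median 11.1), against 2.72 to 7.23 ppm in other cells (median 6.31), a difference of 0.98 with all 8 sets higher. The 8 Tph1 levels of positive cells lay above all 8 of other cells. It was the only gene of 10897 at a mean of 5 ppm or more for which this held (0.00918%), a pattern picked out after its values were seen. Differences over all cells draw most on the sets with the highest levels. Taken within each set, the median difference over the 8 sets was 0.57 for Gip, 0.51 for Pyy, 0.45 for Cck, 0.44 for Sct and for Sst, 0.42 for Nts and 0.27 for Ghrl, all below that of Tph1, which was 0.997.

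**Figure D1:**
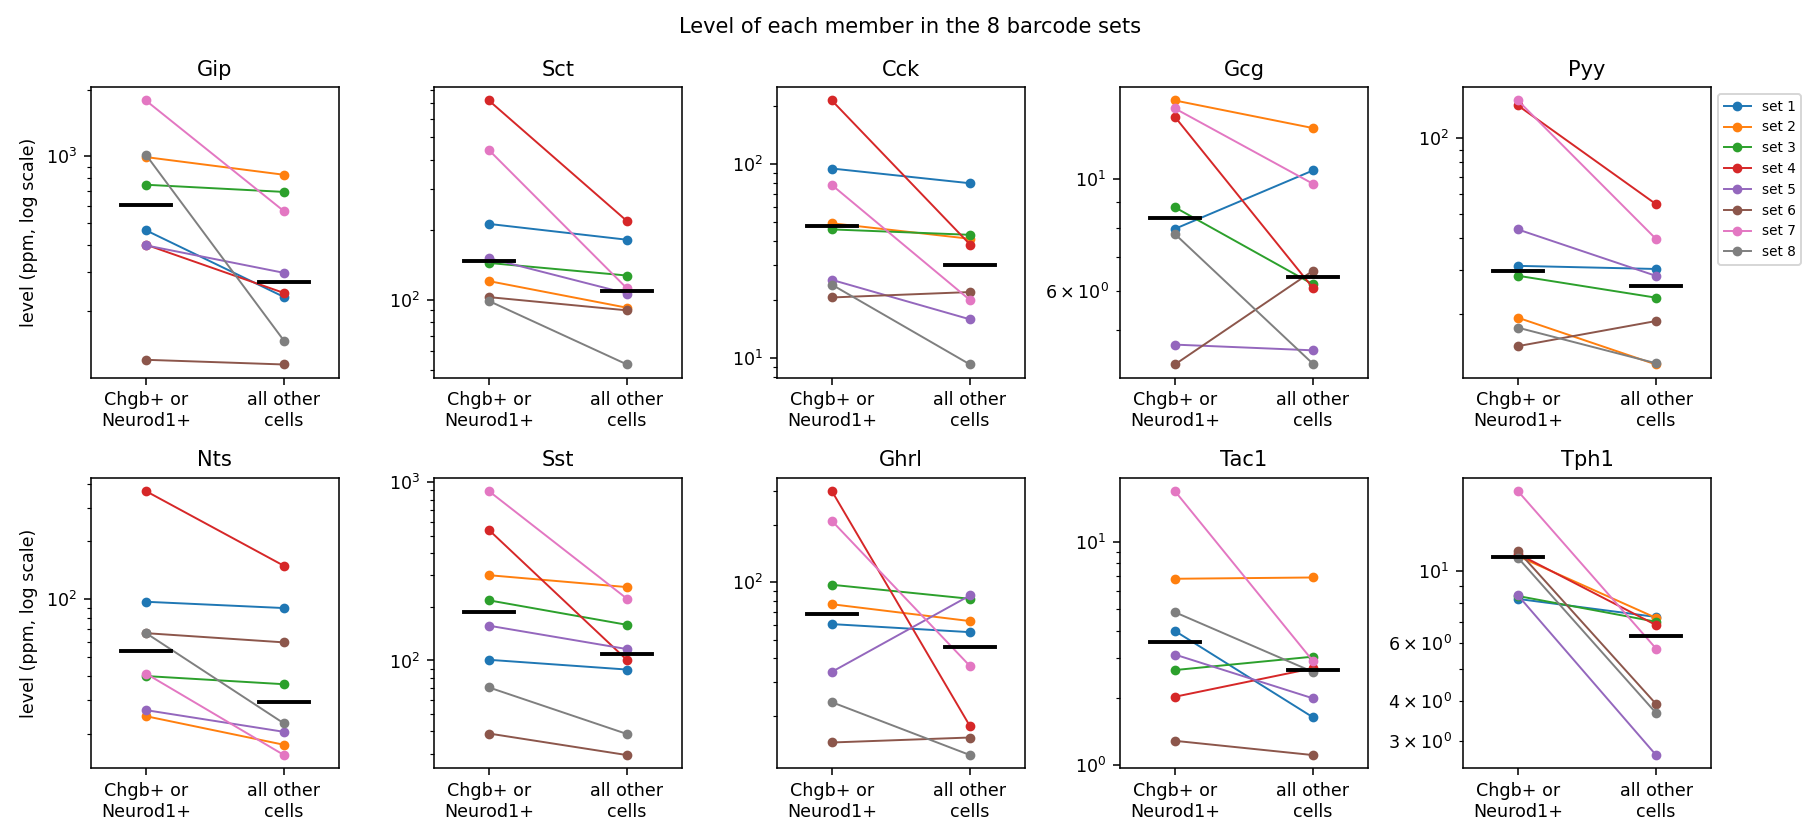
Level of each of the 10 genes in cells with Chgb or Neurod1 (left of each panel) and in all other cells (right), in ppm on a log axis that differs between panels. Each coloured line is 1 of 8 barcode sets and the black bar is the median over sets; the ranges overlap for every gene but Tph1, and sets 4 and 7 are the highest in positive cells for Sct, Pyy, Sst and Ghrl. The set 4 level of Ghrl in positive cells rests largely on 1 cell with a value of 517.

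A gene was called higher where the mean of both levels was at least 10 ppm, the log2 difference at least 1 and all 8 sets in the same direction. By this rule 3 of the 10 genes were higher in positive cells (Gip, Sct and Sst), against 13 of 9288 genes in all (0.14%). Gcg, Tac1 and Tph1 were below 10 ppm and could not be called. Without the limit on size, 4 of the 7 genes at 10 ppm or more (Gip, Sct, Nts and Sst) were higher in all 8 sets, against 2.67% of the 9288 genes. The median difference was 1.03 for the 10, including the 3 low ones, and 0.02 for the 9288 genes. No gene was called lower (0% of 9288). The rule left none of the 10 called when set 7 was left out, and 5 were called when positive cells were those with a Chgb value of 5 or more.

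The other 10 of the 13 genes called higher included genes of granules, prohormone trimming and ion channels. They were Iapp (amylin, a peptide co-secreted with insulin in the pancreas, 1.51), Cadps (priming of dense-core vesicles, 1.26), Ptprn2 (a protein of the granule membrane, 1.25), Kcnb2 (a voltage-gated potassium channel, 1.25), Rfx6 (a transcription factor of endocrine cells, 1.19), Chga (chromogranin A, 1.14), Cpe (a carboxypeptidase that trims prohormones, 1.09), Cacna2d1 (a calcium channel subunit, 1.07), Nrg1 (the growth factor neuregulin 1, 1.06) and Adcy2 (an adenylate cyclase, 1.06). Several of these belong to the lists of pathway genes described next.

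Among 14 genes of granules and peptide storage, 2 were at 10 ppm or more and both were called higher, Ptprn2 (83.5 ppm in positive cells and 34.5 ppm in others) and Chga (41.3 and 18.2 ppm). Snap25, a protein of vesicle fusion, and Rab3c, a vesicle GTPase, had differences of 1.04 and 1.12 but were below 10 ppm. Of 8 genes of prohormone processing, 1 was called, Cpe (27.5 and 12.4 ppm). The convertase genes that cleave prohormones were not, with Pcsk1 at 0.62 and Pcsk2 at 0.98. Of 19 enteroendocrine transcription factors other than Neurod1, 3 were at 10 ppm or more and 1 was called, Rfx6 (17.2 and 7.0 ppm). Lmx1a, a factor of enterochromaffin cells, had a difference of 1.04 with 7 of 8 sets higher, Isl1 had 1.05 in all 8 sets, and Etv1 had 0.88, all below 10 ppm.

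Of 10 genes of monoamine synthesis and storage, Tph1 among them, 8 were at 10 ppm or more and 0 were called. Tph1 and Slc18a2 were below 10 ppm and could not be called. The largest differences after Tph1 were those of Slc18a1, a vesicular monoamine transporter (0.36), Maob, which degrades amines (-0.31), and Slc18a2, the second vesicular transporter (0.30). Of 13 sensing receptors for nutrients, bile acids and amines in the table, 1 was at 10 ppm or more, and it was not called. The largest differences in the list, all of genes too low to be called, were those of Ffar2, a receptor of short-chain fatty acids (0.65), the irritant channel gene Trpa1 (0.49), the galanin receptor gene Galr1 (0.49) and the somatostatin receptor gene Sstr5 (0.39). Of 9 genes of excitability in the table, 2 were at 10 ppm or more and 1 was called (Kcnb2, 79.5 and 32.9 ppm), while the sodium channel gene Scn3a was at 1.01 and below 10 ppm. Among 8 other gut peptides in the table, Iapp alone was at 10 ppm or more, and it was called. Gastrin (Gast) had 0.54 over all cells but was higher in positive cells in 1 of 8 sets. Of 13 receptors for the 10 products in the table, only the serotonin receptor gene Htr4 was at 10 ppm or more, and at 0.30 it was not called. The receptor genes of glucagon-like peptide 1 (Glp1r) and serotonin (Htr2b) were at 0.63 and 0.45.

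Lists set up for comparison showed no called gene in either direction. These were 10 regional genes (largest difference Hoxb7, -0.37), 8 dissociation stress genes (Hspa1a, -0.19) and 8 housekeeping genes (Gapdh, -0.28). Summed markers of other cell types overlapped widely between positive and other cells. Paneth markers summed to 4217 ppm in positive cells (1685 to 5773 ppm over sets) and 3059 ppm in other cells (1234 to 4691 ppm), stem markers to 2684 and 2121 ppm, goblet markers to 3771 and 3507 ppm, and enterocyte markers to 2050 and 2408 ppm. Tuft markers summed to 32.8 and 28.2 ppm and stomach markers to 565 and 736 ppm. Markers of cells that the sort should remove were low. They summed in positive and other cells to 0.953 and 0.647 ppm for 3 T cell markers, 0.786 and 1.31 ppm for 3 B or plasma cell markers, 9.65 and 12.3 ppm for 3 myeloid markers, and 12.1 and 6.84 ppm for 4 nerve and glia markers. Of 3 stromal and 3 endothelial markers, 1 each was in the table, at 1.07 and 0.639 ppm and at 2.64 and 2.22 ppm. Markers of red blood cells summed to 12.5 and 10.8 ppm, with 1 set at 175 ppm in positive cells, and cycling markers to 609 and 591 ppm. The 14 enteroendocrine markers other than Chgb and Neurod1 summed to 153 ppm in positive cells (66.3 to 288 ppm over sets) and 74.1 ppm in other cells (45.3 to 111 ppm), and 3 of the 14 were called higher (Chga, Cpe and Rfx6). The part of these other markers in the hormone differences was not tested.

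Hormone transcripts were present in most kinds of cell. Gip had a value in 79.7% of positive cells and in 62.7% of other cells, and Sct in 43.7% and 33.0%. In enterocyte-marker cells, which had at least 3 of 7 enterocyte markers and neither Chgb nor Neurod1 and should lack these hormones, Gip had a value in 63.7% and Sct in 38.5%, at 1920 median detected genes. Sst had a value in 46.7% of positive, 31.0% of other and 28.6% of enterocyte-marker cells, and Nts in 16.6%, 15.9% and 20.4%. Within sets, Nts was detected more often in positive cells in all 8, for example in 46.9% of positive and 37.6% of other cells of set 4 and in 7.27% and 5.81% of those of set 7. The low genes were detected in few cells of any kind, Tph1 in 5.03% of positive, 2.51% of other and 2.47% of enterocyte-marker cells, and Tac1 in 2.87%, 1.44% and 1.30%.

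The make-up of this background varied more between barcode sets than between 4 overlapping marker classes of the same set. In other cells with no gene at a high value, the share of Gip in the summed value of the 10 genes lay between 29.9% and 62.7% over sets and 4 marker classes (enterocyte, stem, goblet and Paneth). Within a set, the 4 classes spanned a median of 1.81 percentage points, and at most 6.22. The share of Nts lay between 1.25% and 18.5%, and within a set the classes spanned a median of 0.373 percentage points and at most 2.50. The same held for Sct, with 6.75% to 27.6% overall and a median span within sets of 0.920 points. A cell can have markers of several classes, so the classes share cells. In set 4, with 1800 other cells, 1771 were in the goblet class and 1530 in the enterocyte class. Shared cells by themselves make the spans within a set small, so the classes cannot be read as separate kinds of cell.

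**Figure D2:**
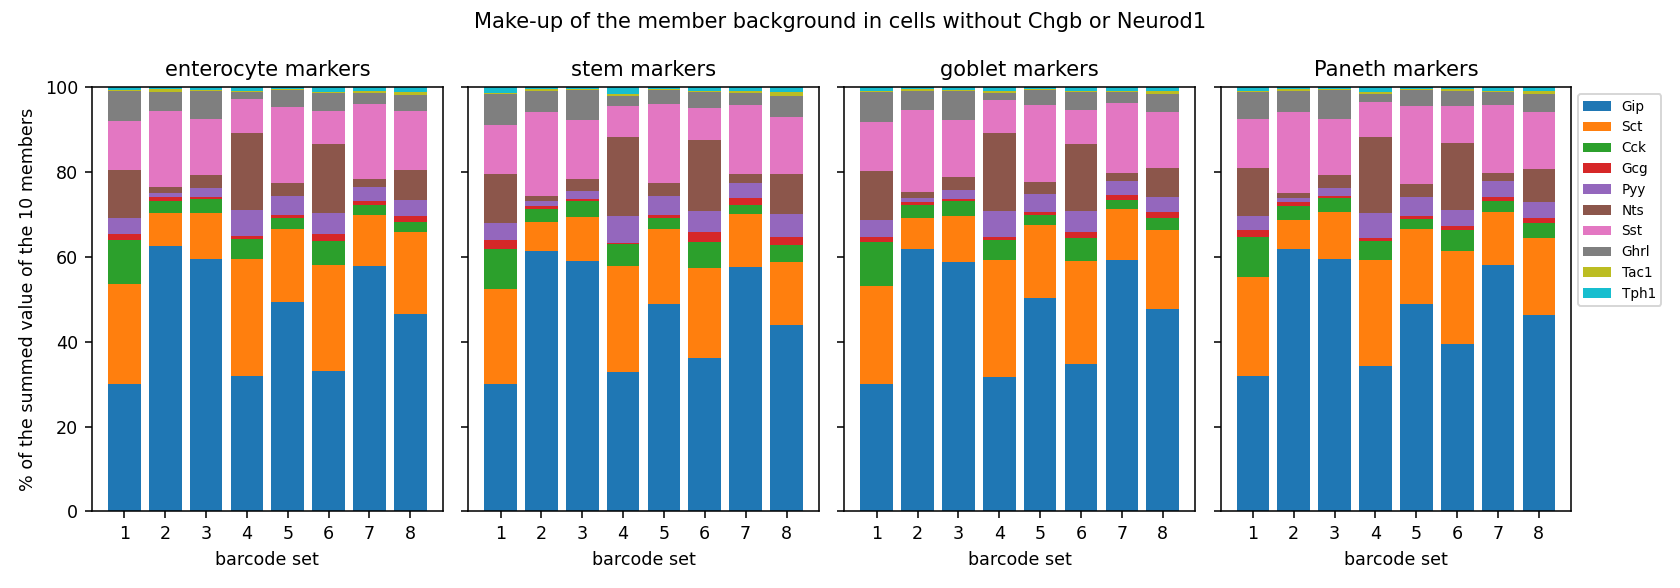
Share of each of the 10 genes in their summed value in cells with neither Chgb nor Neurod1 and no gene at a high value, as percent, for 8 barcode sets and 4 marker classes. Bars of the same set look alike in all 4 classes, which share many cells, and bars of different sets differ, with Gip between 29.9% and 62.7%.

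Along the intestine, all 10 genes had a higher pooled level in other cells at the distal than at the proximal end of a regional score, though not in every set. Enterocyte-marker cells were ranked within each set by 8 distal minus 8 proximal enterocyte genes and divided into 3 parts. Gip was at 503 ppm in the 3601 distal cells and 207 ppm in the 3604 proximal cells, a difference of 1.28 with all 8 sets higher distally. Sct was at 191 and 85.2 ppm (1.15, 8 of 8 sets), Sst at 156 and 84.8 ppm (0.87, 6 of 8 sets) and Nts at 75.3 and 45.8 ppm (0.70, 8 of 8 sets). Tac1 was at 3.26 and 2.70 ppm (5 of 8 sets) and Tph1 at 6.96 and 5.48 ppm (6 of 8 sets). Detection was lower distally for Gcg (3.22% and 3.52%), Tac1 (1.31% and 1.61%) and Tph1 (2.50% and 2.91%). Ghrl was highest in the middle part, at 85.1 ppm, against 51.9 ppm distally. One other cell of set 5 had a Ghrl value of 866, and its part in these levels was not tested. By the same rule as above, 2 of the 10 (Gip and Sct) were called higher distally and none lower, against 5.52% of 8266 genes higher and 9.06% lower. Of the 10, 4 had the same direction in all 8 sets (Gip, Sct, Pyy and Nts), against 40.9% of the 8266 genes. The median difference was 0.80 for the 10 genes and -0.18 for all genes. Distal cells had 1687 median detected genes and proximal cells 2562.5, and the part of this gap in the result was not tested.

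High values were rarer, and their shares differed more between positive and other cells. With a value of at least 10 taken as high, 903 positive cells (12.4%, 95% interval 11.6 to 13.2) were high for at least 1 of the 10 genes, against 834 other cells (4.05%, 3.79 to 4.33). Intervals are exact binomial intervals and cover counting error only. Most of these cells were high for Gip, 753 positive and 735 other cells, and 372 and 309 of them were in set 2, where the mean Gip value was 5.98 in positive and 4.76 in other cells. A value of 10 was thus within the background of Gip in set 2, and in set 3 as well, where 79 positive and 211 other cells reached it.

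A threshold scaled to each set was therefore added after the values were seen. It asked for a value of at least 10 and of at least 10 times the mean of the other cells of the same set, and for Gip it came to 47.6 in set 2, 37.6 in set 3 and 32.1 in set 7. By this threshold 341 positive cells (4.68%, 4.2 to 5.18) and 164 other cells (0.797%, 0.680 to 0.928) were high for at least 1 gene, and the counts below use it. Set 7 held 260 of the 341 and set 4 held 39. At least 3 of the 14 enteroendocrine markers other than Chgb and Neurod1 were detected in 126 of the 341 (37.0%), in 20 of the 164 (12.2%), in 2.27% of positive cells with no high gene and in 0.666% of other cells with none.

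For 7 hormones the share of high cells was larger among positive cells than among other cells, with intervals that did not overlap. These intervals cover counting error over pooled cells only, not differences between sets or animals. Gcg had 1 high cell of each kind, and Tph1 had none. Gip was high in 141 positive cells (1.93%) and 52 others (0.253%), Sct in 119 (1.63%) and 36 (0.175%), and Cck in 22 (0.302%) and 3 (0.0146%). Pyy was high in 35 positive cells (0.480%) and 13 others (0.0632%), and Nts in 16 (0.219%) and 3 (0.0146%). Sst was high in 129 positive cells (1.77%) and 72 others (0.350%), and Ghrl in 52 (0.713%) and 18 (0.0874%). Tac1 was high in 2 positive cells and no other cell (0% to 0.0179%). The sets were not alike. Sst was high mainly in set 7 (115 of 129 positive cells), as was Ghrl (46 of 52), and Nts mainly in set 4 (12 of 16). Cck was high in 13 positive cells of set 4 and 8 of set 7, Sct in 24 and 88, and Pyy in 6 and 28. Gip was high in 108 positive cells of set 7, and in set 8 in 17 positive and 15 other cells.

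A single hormone made up to 15.6% of the summed values of a high cell. Gip took a median of 1.28% of a Gip-high cell's total and at most 15.6%, Sst 0.832% and at most 10.1%, and Ghrl 0.280% and at most 10.04%. Chgb was detected in 98.4% of Sst-high and 94.3% of Gip-high positive cells but in 43.8% of Nts-high positive cells, which otherwise entered through Neurod1. Of Sst-high cells 62.8% were high for no other gene, and of Gip-high cells 47.5%. The share was 22.7% for Sct, 19.2% for Ghrl, 18.2% for Cck and 5.71% for Pyy.

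Co-expression at high values was more frequent in positive cells than in the others when all 10 genes were counted, and the gap was smaller without Gip. At a value of 10, 191 of the 903 positive cells (21.2%, 18.5 to 24.0) were high for 2 or more genes, against 50 of the 834 other cells (6.0%, 4.48 to 7.83). By the scaled threshold it was 142 of 341 (41.6%, 36.4 to 47.1) against 32 of 164 (19.5%, 13.7 to 26.4), and 29 of the 142 were high for 3 or more. Set 7 gave 112 of 260 positive cells (43.1%) and 28 of 113 other cells (24.8%), and set 4 gave 26 of 39 (66.7%) and 3 of 12 (25%). At a value of 10 without Gip it was 87 of 284 positive cells (30.6%, 25.32 to 36.4) and 28 of 130 other cells (21.5%, 14.8 to 29.6), with intervals that overlapped, and in set 7 it was 28.5% and 26.7%. With all 10 genes and without sets 4 and 7 it was 10 of 506 positive cells (1.98%, 0.952 to 3.60) and 8 of 594 other cells (1.35%, 0.583 to 2.64), again with overlapping intervals. Positive cells high for exactly 2 genes had 1494 median detected genes and those with no high gene 2160, and their median totals were 4704 and 5623.

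The pairs fell into a few combinations. Sct was part of most of them, high in 30 of the 35 Pyy-high positive cells (85.7%), 10 of the 16 Nts-high (62.5%), 12 of the 22 Cck-high (54.5%) and 51 of the 141 Gip-high (36.2%). The product of the separate shares within sets would give 1.81 cells high for Sct and Pyy, so the count was 16.6 times that product. For Sct with Nts the ratio was 15.3, for Sct with Cck 11.2 and for Sct with Gip 8.22. Pyy and Nts were high together in 7 cells (41.9 times the product), 6 of them in set 4. In other cells, Sct was high in all 13 of the Pyy-high cells. The product is taken over all positive cells of a set, most of which had no high gene (in set 7, 260 of 1636 had any). Genes that are high within the same small part of the cells can exceed it for that reason alone. A ratio above 1 therefore does not show that 2 genes pair more than other genes of the high cells. The ratios also rest on few cells and carry no test.

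Sst and Ghrl were each most often high with the other by the scaled threshold, while at a value of 10 Sst was high with Gip in 52 cells and with Ghrl in 29. Of 52 Ghrl-high positive cells, 29 were Sst-high (55.8%, 8.80 times the product), 25 of them in set 7 and 3 in set 4. Sst was high in 5 of 119 Sct-high cells, 0.764 times the product, and in no Cck-high or Nts-high cell. Ghrl was high in 9 Sct-high cells, 3.36 times the product. Ghrl was also high with Cck in 6 cells (18.1 times the product), all in set 7. Gip was high with Sst in 22 cells (2.85 times the product), all in set 7. Of the 260 positive cells of set 7 with a high gene, 108 were Gip-high and 115 Sst-high. Cck and Pyy were never high together, where the product would give 0.297 cells, so this count says little.

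**Figure D3:**
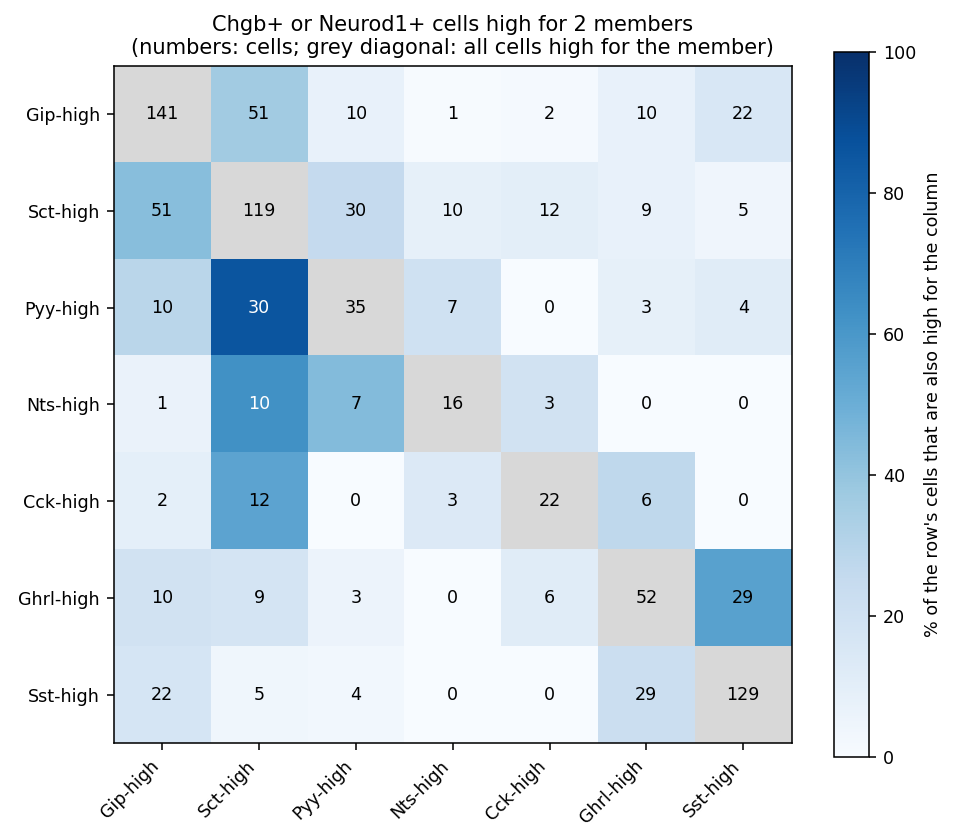
Number of cells with Chgb or Neurod1 that were high for the gene of the row and the gene of the column, with all cells high for a gene on the grey diagonal; the colour is the percent of the row's cells. The darkest squares are Sct in Pyy-high cells (30 of 35), Sct in Nts-high cells (10 of 16) and Sst in Ghrl-high cells (29 of 52).

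Iapp, a further peptide, was found with high Sst and not with high Ghrl alone. It was detected in 17 of the 29 cells high for Sst and Ghrl (58.6%, 38.9 to 76.5), at 1329.5 ppm. It was also detected in 53 of the 100 cells high for Sst but not Ghrl (53.0%, 42.8 to 63.1), at 263 ppm, and in 0 of the 23 high for Ghrl but not Sst (0% to 14.8%). In the other 7142 positive cells it was detected in 3.23%, and in all other cells in 2.05%. Iapp values of 10 or more were found in 9 of the 29 cells and in none of the 100. These cells were mostly of set 7 (25, 90 and 21 of the 3 groups).

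The genes that went with each hormone at high values differed in part and were shared in part. In Gip-high positive cells (value of at least 10, 753 cells), 18 of the 3357 genes at 50 ppm or more there (0.536%) had a log2 difference of at least 1 from the remaining positive cells and were higher in every set with at least 5 such cells. Sets 2 and 3, where a value of 10 was within the background of Gip, held 372 and 79 of these cells. Leading them were Sphkap, which anchors protein kinase A (3.16), the fatty acid-binding protein gene Fabp5 (2.59), Rfx6 (2.49) and Cpe (2.02). Products of Paneth cells were among the first 15 as well, with Defa24 at 1.26, Defa30 at 1.20, Lyz1 at 1.13, Defa29 at 1.13 and Defa22 at 1.07, and their part in the result was not tested. In Sct-high cells (122 cells, 62 of 2988 genes, 2.07%) the leading genes were Scg2, secretogranin II (4.10), Myl7, a myosin light chain (4.02), the granule protein gene Resp18 (3.97) and Plcxd3 (3.84). In Cck-high cells (22 cells, 239 of 3364 genes, 7.1%) they were the transcription factor gene Etv1 (5.29), Scg2 (4.99), Myl7 (4.49) and Dclk1, a kinase best known from tuft cells (4.01). In Pyy-high cells (35 cells, 92 of 3110 genes, 2.96%) they were the ion channel gene Asic2 (4.79), Gatm of creatine synthesis (4.67), Fgf12 (4.50) and Scg2 (4.50). The Sct, Cck and Pyy comparisons each rest on sets 4 and 7 only.

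Sst-high and Ghrl-high cells had Iapp as their leading gene. In Sst-high cells (138 cells, 11 of 3156 genes, 0.349%, sets 2, 4 and 7), Iapp had a difference of 6.08, followed by Scg3, secretogranin III (3.37), the potassium channel gene Kcnma1 (2.55) and Adcy2 (2.46). In Ghrl-high cells (52 cells, 61 of 3011 genes, 2.03%, set 7 alone), Iapp had 6.20, followed by Lrrtm3 (5.48), the ion channel gene Asic5 (3.94) and Myl7 (3.84). The Iapp of Ghrl-high cells came from those that were also Sst-high, as given above.

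With sets 4 and 7 pooled, list genes were compared between high cells and the 1823 positive cells with no high gene. Of the 1823 cells, 447 were of set 4 and 1376 of set 7, while Nts-high and Cck-high cells lay mainly in set 4. The part of differences between the 2 sets in these values was not tested. Pcsk2, a convertase of pancreatic islets, was detected in 16.4% of 122 Sst-high cells and 12.2% of 115 Gip-high cells, against 0.603% of cells with no high gene. It was detected in 0 of the 112 Sct-high cells (0% to 3.24%) and 0 of the 50 Ghrl-high cells (0% to 7.11%), and in none of the 34 Pyy-high, 21 Cck-high and 13 Nts-high cells, where the interval reaches 10.3%, 16.1% and 24.7%. Pcsk1, the convertase usual in enteroendocrine cells, was detected in 12.3% of Sst-high cells and 19.0% to 30.8% of the cells high for each of the other 6 genes, against 6.80%. Scg2 was detected in 52.4% of Cck-high, 41.2% of Pyy-high and 7.38% of Sst-high cells, against 1.86%. The log2 difference in level of Etv1 was 5.62 in Cck-high and 0.20 in Sst-high cells. Chga was not detected more often in the 2 largest groups, at 14.8% of Sst-high and 10.4% of Gip-high cells against 17.8%. Meis2, a homeobox transcription factor gene of the regional list, was detected in 23.8% of Sst-high and 14.8% of Gip-high cells, against 4.22%.

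**Figure D4:**
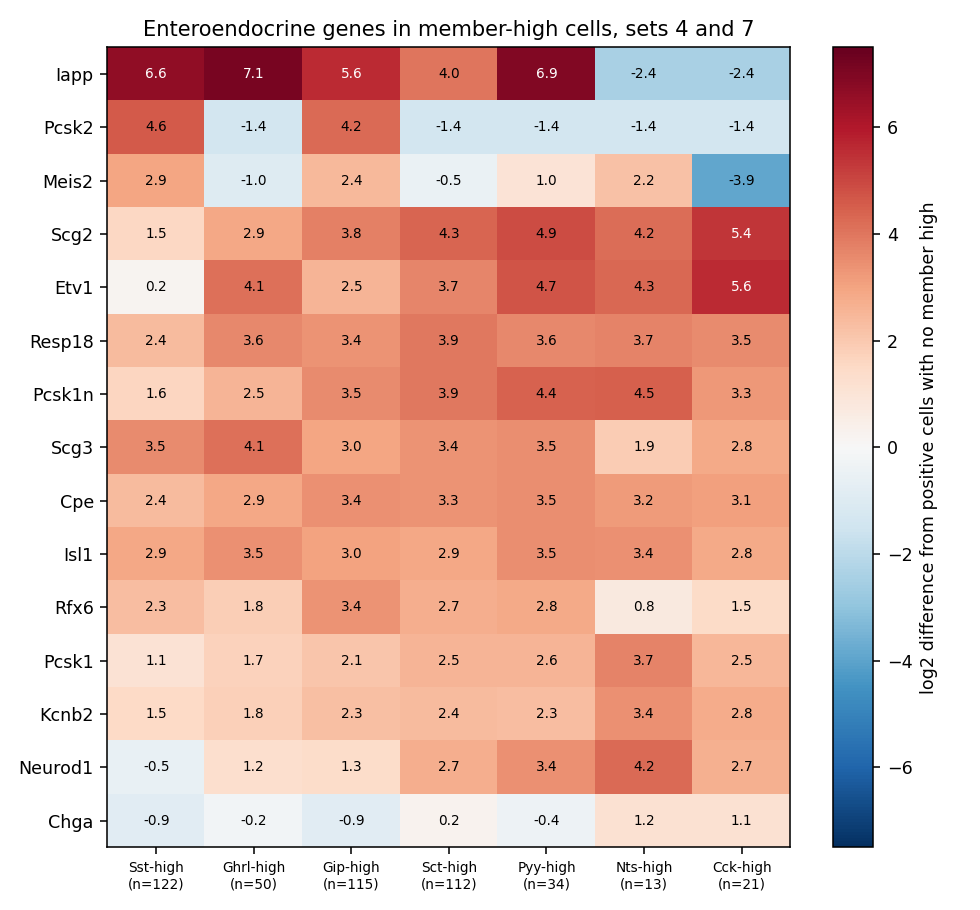
Log2 difference in level of 15 list genes, among them the regional gene Meis2, in barcode sets 4 and 7 pooled. Cells high for the gene of the column are set against the 1823 positive cells of these sets with no high gene. Red is higher in high cells, and the genes shown were chosen after their values were seen. Pcsk2 is red only for Sst and Gip and was not detected in the other 5 groups, Scg2 is palest for Sst, and the Iapp values in the Sct and Pyy columns come from 1 and 3 cells.

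Markers of other cell types in these high cells were measured beside the hormones. Goblet markers had a median of 13835 ppm in Cck-high and 13833 ppm in Nts-high cells of sets 4 and 7, against 3034 ppm in cells with no high gene. Both groups lie mainly in set 4, and the cells with no high gene mainly in set 7. The sets were not compared separately, so the goblet values cannot be told apart from a difference between sets. In the other groups the goblet median was 2265 to 3236 ppm. Paneth markers had a median of 3494 to 8262 ppm over the 7 groups, against 3397 ppm. Tuft markers had a median of 0 in every group, and were detected in 47.6% of Cck-high and 4% to 23.2% of the other high cells, against 11.6%. Stomach markers were detected in 35.3% of Pyy-high cells and 5.59% of cells with no high gene. The 14 enteroendocrine markers had a median of 442 to 1166 ppm over the 7 groups, against 0. The part of goblet, Paneth, tuft and stomach transcripts in the co-expression was not tested.

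The 2 genes of enterochromaffin cells were highest in the cells with the most Chgb, and so were Sct, Gip and Cck with all sets pooled. Tac1 was at 2.86 ppm in cells with no Chgb, 32.7 ppm in the 287 cells with a Chgb value of 5 to 9 and 124 ppm in the 120 cells with 10 or more. Tph1 was at 5.63, 37.8 and 93.5 ppm in the same cells. This was also seen outside sets 4 and 7, where Tac1 was at 2.87 ppm and Tph1 at 5.42 ppm in cells with no Chgb, and at 152 and 172 ppm in the 16 cells with 10 or more. Sst was at 132, 2397 and 1791 ppm and Ghrl at 50.6, 632 and 224 ppm over the same 3 bins of all sets. The middle bin rests in part on the 27 such cells of set 4, where Ghrl was at 4910 ppm, largely from 1 cell with a value of 517. In set 7 Ghrl was at 65.2, 251 and 261 ppm and Sst at 221, 2665 and 2262 ppm. With all sets pooled, Sct was at 122, 629 and 1665 ppm, Gip at 409, 2937 and 3017 ppm and Cck at 32.7, 210 and 305 ppm. Nts was at 48.0, 58.3 and 58.3 ppm. Set 7 held 95 of the 120 cells of the top bin. From the middle to the top bin of set 7, Gip fell from 3630 to 3128 ppm and Cck from 138 to 121 ppm. Cck also fell outside sets 4 and 7 (93.8 to 81.0 ppm) and rose only in set 4 (1102 to 2668 ppm, 9 cells in the top bin). Gip rose in set 4 (725 to 3222 ppm) and outside sets 4 and 7 (2147 to 2350 ppm). The 3700 cells with a Chgb value of 1 were close to the cells with no Chgb. Sct was at 102 and 122 ppm in these 2 bins, Cck at 31.4 and 32.7, Pyy at 23.7 and 29.8, Nts at 33.2 and 48.0, and Ghrl at 46.5 and 50.6. Higher at a value of 1 were Gip (504 and 409 ppm), Sst (159 and 132), Tac1 (3.51 and 2.86), Tph1 (7.15 and 5.63) and Gcg (8.17 and 7.85). The bins also differed in median detected genes, with 2250 at a Chgb value of 0, 2671 at 1, 1702 at 2 and 1786 at 10 or more. The part of this in the levels by Chgb value was not tested.

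**Figure D5:**
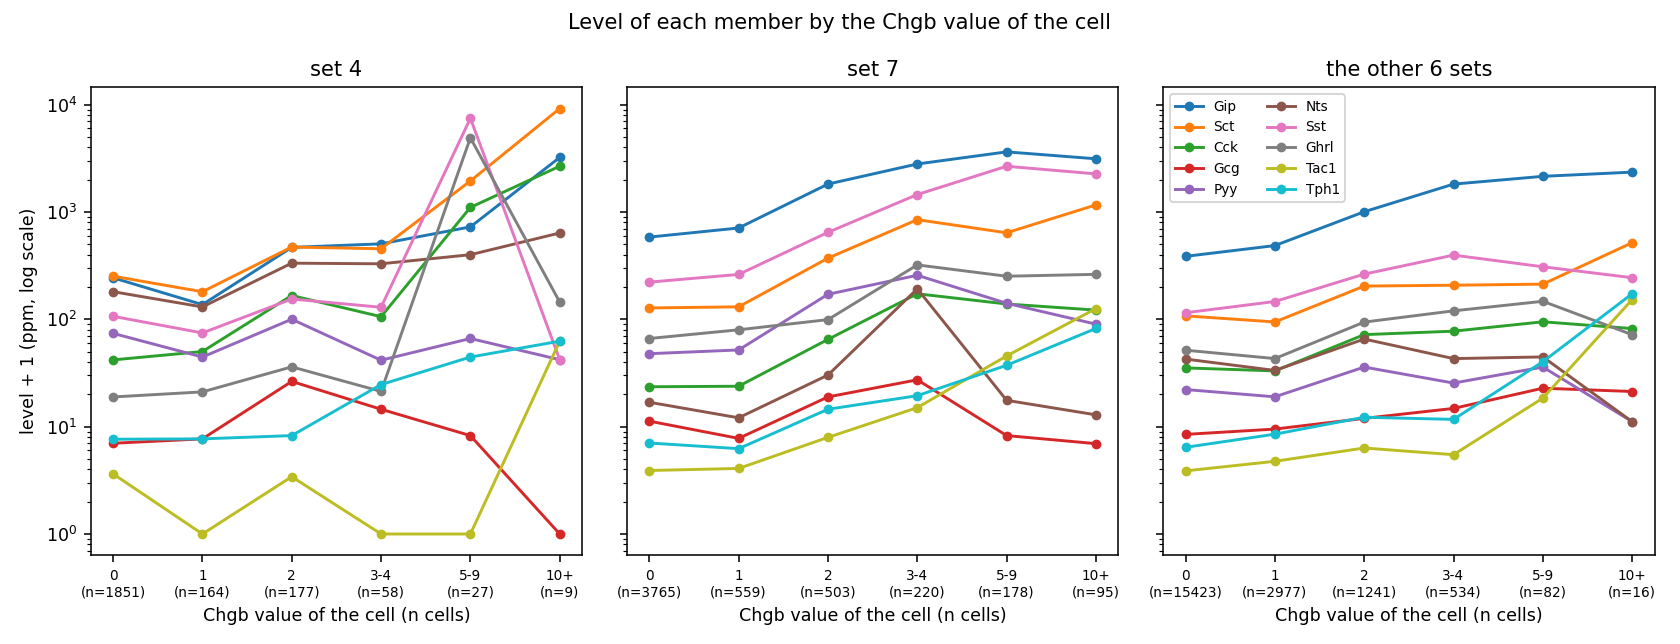
Level of each of the 10 genes, as ppm plus 1 on a log axis, by the Chgb value of the cell, for set 4, set 7 and the other 6 sets. Tac1, Tph1 and Sct are highest at a Chgb value of 10 or more in all 3 panels. Tac1 and Tph1 reach 152 and 172 ppm in the other 6 sets, while Sst and Ghrl peak at 5 to 9 in set 4, which holds 27 such cells.

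Tac1, Tph1 and Gcg almost never reached 10, so a value of 3 or more was also counted, a threshold set after the values were seen. Tac1 reached 3 in 16 positive cells and 1 other cell, with 12 of the 16 in set 7. Of the 16, 9 had a Chgb value of 10 or more, Tph1 was detected in 8 (50%, against 4.93% of the remaining positive cells), and none was high for Gip, Sct, Cck, Pyy, Nts, Sst or Ghrl (0% to 20.6% for each). Tph1 reached 3 in 21 positive cells and 8 others, spread over 7 sets in positive cells, and Tac1 was detected in 6 of the 21 (28.6%, against 2.79%).

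Gcg reached 3 in 16 positive cells and 22 other cells, which was 0.219% and 0.107% of each. Of the 16 positive cells, 7 were Ghrl-high (43.8%, against 0.618% of the remaining positive cells), 5 Cck-high (31.2%, against 0.234%), 3 Pyy-high (18.8%, against 0.440%) and none Gip-high or Sst-high. Set 7 held 12 of the 16. The only positive cell with Gcg at 10 or more was also high for Cck and Ghrl. The counts are too small to order these 3 partners.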

How the data were processed

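Values came from 1 table of single cells deposited by the authors; per the submitters' processing notes, Cell Ranger was used with build mm10, whose version the sources do not give. The deposited values are treated as a score: all are whole, yet 2 is a more frequent value than 1 in 25.3% of cells, which plain read counts would not show, and the depth is unknown. A count test per sample was foreseen and could not be run, since the cells could not be mapped to samples, so levels are described with no test. Cells with under 500 detected genes or over 25% mitochondrial values were removed (2 of 27881), and no doublet caller was run. Levels are ppm of summed values with a pseudocount of 1 ppm, and differences are log2. Shares carry exact Clopper-Pearson 95% intervals. The genes, lists and markers were chosen with earlier results of these data known. Named genes were the 10 genes, up to 4 of each list with the largest difference, and for each gene with at least 20 high cells the 4 leading genes at 50 ppm or more. The calling step was tested on simulated data. Promoters were read from RefSeq tables of GRCm38.p6, in which all 10 genes matched by symbol. Figures were drawn with matplotlib 3.10.9, and sums and intervals were computed in Python 3.11.15 with scipy 1.17.1, pandas 2.3.3 and numpy 2.4.6.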

Additional observations from a re-analysis of the deposited data

Results flagged for a closer look

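In 5 of 20 groups of 8 barcode sets (10 genes, in positive and in other cells), 1 set stood far from the rest. The cut-off flags about 1 in 20 groups when the 8 values are independent and normally distributed. These levels were not shown to be so and the groups share sets and cells, so that rate need not hold here. Cck in positive cells was at 213 ppm in set 4, with the nearest set at 94.9 ppm. Nts in positive cells was at 366 ppm in set 4, with the nearest at 97.1 ppm. Tac1 in positive cells was at 16.8 ppm in set 7, with the nearest at 6.82 ppm, and in other cells at 6.91 ppm in set 2, with the nearest at 3.06 ppm. Tph1 in positive cells was at 17.6 ppm in set 7, with the nearest at 11.5 ppm. Sets 4 and 7 also held the largest shares of cells with a Chgb value of 5 or more, and the part of these cells in the high levels was not tested.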

How the results depend on the processing

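The count of 3 genes called higher was 7 with a minimum of 2 for Chgb or Neurod1, 1 against enterocyte-marker cells, and, among settings added after the data were seen, 5 with Chgb of at least 5 and 0 without sets 4 and 7; leaving out 1 set at a time gave 0 (without set 7) to 4. The share of high positive cells that were high for 2 or more genes, 21.2%, was 24.6% with the minimum of 2, 47.5% with both genes required, 32.4% with high set at 20, and, as added settings, 56.1% with Chgb of at least 5, 1.98% without sets 4 and 7, 41.6% with the scaled threshold and 30.6% without Gip; without 1 set it was 6.95% (set 7) to 35.2% (set 2). The share of positive cells high for any gene, 12.4%, was 21.7%, 28.1% and, with high set at 5, at 20 or at 2000 ppm of a cell, 34.0%, 4.2% and 11.4%; the added settings gave 38.6%, 9.78%, 4.68% and 3.89%, and without 1 set it was 9.67% to 13.7%. The median log2 difference of the 10 genes, 1.03, was 1.73, 2.24 and 2.71 with the minimum of 2, both genes or Chgb of at least 5, and 0.68 to 1.26 without 1 set. The regional median, 0.80, stayed within 0.63 to 1.02, and within 0.71 to 0.98 without 1 set. The 483 genes that went with a hormone were 281 with both genes required, 237 with high set at 5 and 16 without sets 4 and 7, and 240 to 566 without 1 set. Of 588 values of single genes, 135 moved, and all 180 level differences stayed above 0. The share of high cells was larger in positive than in other cells under every setting for 7 hormones, but in 16 of 21 settings for Gcg, 19 for Tac1 and 2 for Tph1. No paired analysis was possible because the replicate numbers of the sample titles could not be tied to cells. Positive and other cells were compared within each barcode set. The depth is unknown, so no value says how many molecules were read, and the low genes Gcg, Tac1 and Tph1 are the least certain.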
